A study of Mus musculus with 12 samples.

Results

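The tables of X-linked variants leave the gene name of some transcribed sites empty. These are single-base variants that at least 20 reads covered in at least 1 of 12 libraries and to which no table gave a gene. There were 416 of them among 6478 single-base sites of that depth, and the other 6062 had a name. They fell into 68 windows of 100 kb, and the 10 fullest windows held 227 of them. In the study, poly(A) RNA was read from mouse embryonic fibroblasts and from cells reprogrammed from them by the Sendai virus vector SeVdp(fKOSMaB). MEF1 and MEF2 are fibroblasts at day 0 without vector or agent. LowK received the vector and no agent and was taken at days 35, 52 and 56. MidK1 (days 35, 52 and 56) and MidK2 (days 18, 22, 29 and 36) received the vector and 30 nM Shield1, a small molecule used to keep proteins with a destabilising domain from degradation. Each reprogrammed course and day is 1 library, so no comparison below measures the spread between cultures. The labels name neither strain nor sex nor the parent that each X chromosome came from, nor whether MEF1 and MEF2 were separate cultures.

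In female mammalian cells 1 of the X chromosomes is silenced early in development, and most of its genes are then read from the active copy only. A few genes escape and are read from both. Reprogramming to pluripotency can reactivate the silent copy, and where the parental chromosomes differ by single bases the reads tell the copies apart. The end of a messenger RNA is often the least settled part of a gene model: many genes use several polyadenylation sites, and an annotation that holds only the nearer one leaves reads past it without a name. Such reads belong to the same transcript and carry alleles of their own.

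The value per site is the reference share, the percentage of covering reads that do not carry the variant allele. A share of 0 means variant reads only, and a share near 50% means that both alleles were read. A site with a variant share of 10 to 90% is called biallelic. Positions without variant reads are not listed, and MEF1, LowK and MidK1 came from tables with stricter limits (at least 5 variant reads) than MEF2 and MidK2 (at least 2). A site can therefore be missing from a library because it was not transcribed there, was too shallow, or carried no variant reads, and these cannot be told apart. The libraries held 41 (MEF1) to 246 (MidK2 day 36) unnamed sites with 1564 to 10718 covering reads summed over sites, between 1.04% and 3.85% of the reads summed over all sites. Their median coverage per library was 26.5 to 37.5 reads. Of the 416 sites, 154 had this depth in 1 library only and 6 had it in all 12.

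Most unnamed sites lay just past the 3′ end of a named gene. Of the 416, 295 (70.9%) were within 10 kb of a gene that the tables name elsewhere, and 268 of those 295 were downstream of its end, 21 upstream and 6 inside. Only 6 of 416 sites lay in a gene of the GENCODE M21 annotation, all in Kantr. RefSeq, on the same build (GRCm38, mm10), has longer models and placed 283 of the 416 in a gene: 218 in 21 protein-coding genes, 59 in pseudogenes and 6 in a long noncoding RNA, Kantr again. The 218 had a median distance of 1668 bases past the nearest named gene, and 205 of them lay within 10 kb of it. Uprt, a homologue of uracil phosphoribosyltransferase, shows the gap between the models: it ends at X:104507490 in M21 and at X:104512223 in RefSeq, and its 16 unnamed sites lay 2655 to 4508 bases past the M21 end. The other 133 sites were in no gene of either annotation, and 87 of these were also farther than 10 kb from any named gene.

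**Figure D1:**
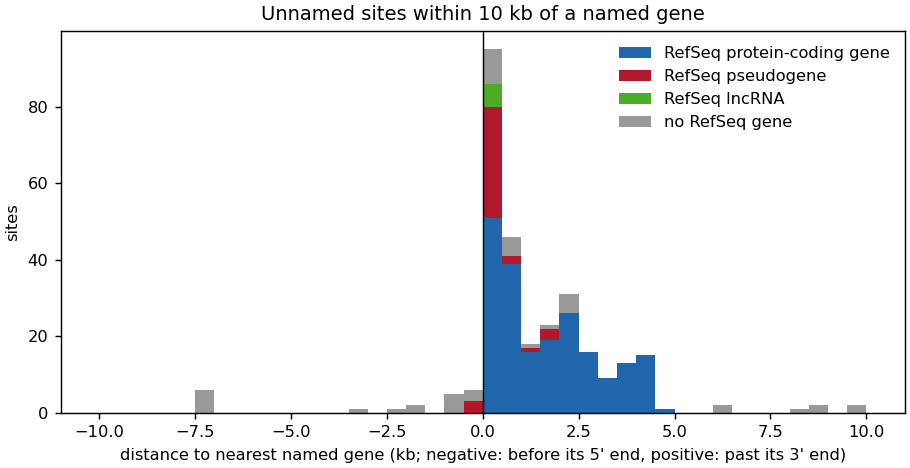
Number of unnamed sites (y axis) by distance to the nearest gene named in the tables (x axis, kb, 0.5 kb bins), with the RefSeq class of each site in colour. Most of the 295 sites within 10 kb lie in the first 5 kb past a 3′ end, and few lie before a 5′ end.

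The kinds of base change resembled those at named sites. Transitions made up 62.7% of the 416 (261 sites) and 66.8% of the 6062 named sites. A-to-G and T-to-C changes were 29.1% of the unnamed and 30.3% of the named sites. Neighbouring sites were often read together: 352 of 416 (84.6%) had another unnamed site within 100 bases. Reads summed over such sites count 1 read several times, so the tests below give p-values that are too small, and they cover counting error only.

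The share of biallelic sites differed between libraries for unnamed as for named sites. Among unnamed sites it was 12.2% in MEF1 (5 of 41, 95% Wilson interval 5.32 to 25.5) and 13.8% in MEF2 (11 of 80, 7.85 to 23.0). These intervals treat neighbouring sites as independent. The Gpc4 window held 4 of the 5 biallelic sites in MEF1 and 8 of the 11 in MEF2. In LowK it was 12.6%, 18.2% and 12.9% at days 35, 52 and 56, and the Kdm5c window held 8 of 11, 9 of 12 and 7 of 13 biallelic sites. MidK1 had 27.5% at day 35, 10.9% at day 52 and 42.9% at day 56. MidK2 had 22.0% at day 18, 31.9% at day 22, 33.3% at day 29 and 19.9% at day 36. The named sites of the same libraries ranged from 9.52% to 47.9%, and the unnamed share was the lower one in 9 of 12 libraries. At MidK1 day 35, 19 of the 30 biallelic sites lay in 1 stretch of 90 bases, described below, and without it the share was 12.2% of 90 sites. At MidK1 day 56, 10 lay in that stretch and 17 of the 45 lay past the end of Cul4b. Without the stretch the share was 38.0% of 92 sites, the highest of the 12 libraries, but the Cul4b sites were 17 of the 35 biallelic sites left.

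Kdm5c, a histone H3 lysine 4 demethylase known to escape X inactivation, has the only unnamed sites within 10 kb of any of the 28 genes listed for X inactivation, escape and pluripotency. Its M21 model spans X:152233020-152274535 on the plus strand, and 24 unnamed sites lay 1087 to 4431 bases past that end, inside the RefSeq model, which ends at 152279102. A further 6 sites of the same window lay in Kantr (X:152294828-152327495, minus strand), a transcript beside Kdm5c that RefSeq calls a long noncoding RNA and M21 calls protein-coding. They are shown beside Kdm5c because the neighbours differ in allele share. Of the 6, 5 are in the untranslated part of the Kantr transcript and 1 is in its M21 coding stretch, at X:152297896. It is the only member whose surroundings could be printed from coding sequence here (M21 transcript, X:152297871-152297921, minus strand, 25 bases on each side, the variant base in capitals, which is a C-to-T change on this strand):
Kantr coding site: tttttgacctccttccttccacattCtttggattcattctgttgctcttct

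Past the end of Kdm5c both alleles were read in every library. For this region, sites with 10 or more reads and with variant reads from at least 5 start positions were summed, a limit chosen after seeing the data, because MEF had no site with 20 reads. The reference share was 45.5% in MEF1 (4 sites, 44 reads, 95% interval 31.7 to 59.9) and 33.9% in MEF2 (5 sites, 62 reads, 23.3 to 46.3). In LowK it was 31.1% at day 35, 45.1% at day 52 and 47.3% at day 56. In MidK1 it was 42.1%, 62.5% and 48.1% at the same days, the second from 4 sites and 80 reads. In MidK2 it was 38.1%, 40.9%, 42.0% and 47.5% at days 18, 22, 29 and 36. All 12 libraries thus lay between 31.1% and 62.5% under these limits, fibroblasts included. A site needs at least 5 variant reads to pass, so a site near 10 reads cannot show a high reference share. Sums over shallow sites, as in MEF1 and MEF2, are capped in this way. The deepest library, MidK2 day 36, had 21 sites with 20 or more reads, and each of them was between 36.4% and 59.6%.

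The share in Kantr depended on the limit on start positions. At MidK2 day 36 all 6 of its sites together had a reference share of 33.6% over 131 reads (95% interval 26.1 to 42.0). The limit of at least 5 start positions left out 2 of them, with shares of 90.5% and 91.7%. A site with fewer than 5 variant reads cannot pass it. At this depth it leaves out the sites with the highest reference shares, whatever their quality. The 4 other sites had 3.49% over 86 reads (1.19 to 9.76), against 47.5% (44.3 to 50.7) past the end of Kdm5c. All 21 sites past the end of Kdm5c passed the limit. The intervals of the neighbours do not overlap with or without it, but the limit by itself lowers the Kantr share and so widens the gap. The intervals cover counting error only. In the 8 other libraries that listed it at 10 or more reads, Kantr had 10 to 33 reads and shares of 0 to 11.1%. No Kantr site was listed in MEF1, MEF2 or MidK2 day 29.

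**Figure D2:**
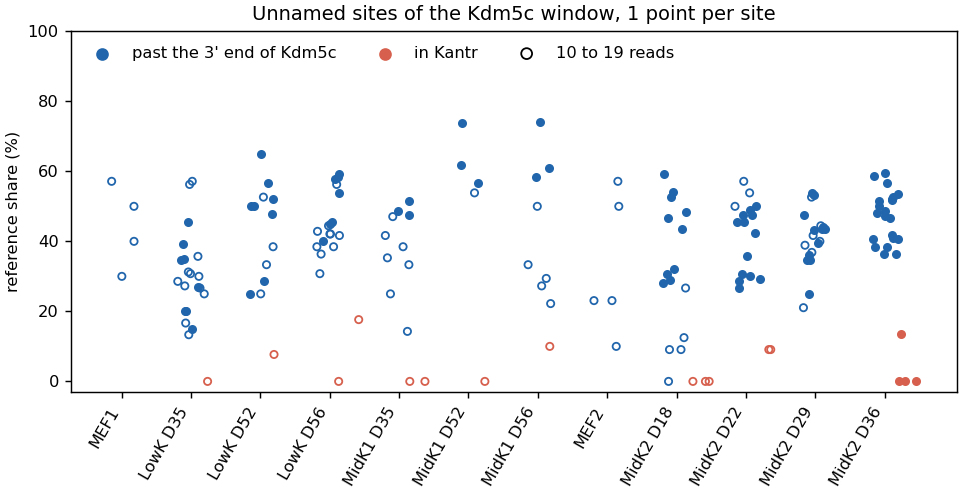
Reference share (y axis, %) of each unnamed site past the 3′ end of Kdm5c (blue) and in Kantr (red) in 12 libraries (x axis), for sites with variant reads from at least 5 start positions; open circles have 10 to 19 reads, and points are spread sideways for legibility. The blue points lie between about 0% and 74% and mostly around 40 to 50%, and the red points lie at or below 17.6%.

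Reference shares were compared between pairs of libraries at sites with 20 or more reads in both. Reads were summed per window and per named gene, and Fisher's exact test (two-sided) was adjusted by Benjamini and Hochberg over all windows and genes of the pair. A call needed both an adjusted p below 0.05 and shares that were 20 or more percentage points apart. These tests compare 2 libraries, not conditions. Against MEF1, none of 16 window values was called in LowK and none of 13 in MidK1, where 2.54% and 11.5% of all windows and genes tested were called. Against MEF2, none of 50 window values was called in MidK2, where the background was 7.63%. At an unadjusted p under 0.05 there were 1, 0 and 9 window values in these comparisons. Few windows could be compared with MEF: 4 to 6 per library against MEF1 and 12 or 13 against MEF2.

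Between MidK1 and LowK on the same day, 1 of 50 window values was called, beside a background of 7.9%. It was the Kdm5c window at day 35. Over 4 shared sites the reference share was 30.9% of 94 reads in LowK and 51.5% of 132 reads in MidK1 (adjusted p = 0.0113, Fisher's exact test, Benjamini-Hochberg). Of the 4, 1 site had variant reads from fewer than 5 start positions in MidK1. Over the other 3 sites the shares were 33.8% of 74 reads and 49.1% of 112 reads, and the call was lost. Kdm5c itself had 28.0% in LowK and 36.7% in MidK1 at that day. At day 52 the window had 52.2% in LowK and 59.1% in MidK1 over 2 shared sites, and at day 56 it had 58.4% and 64.9% over 3, and neither difference was called.

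The end of Cul4b, a scaffold subunit of cullin-RING ubiquitin ligases, had the most unnamed sites of any window, 33 of them 240 to 1491 bases past the M21 end (X:38533274-38576196, minus strand). At 20 or more reads and at least 5 start positions the reference share was 4.31% in LowK at day 56. In MidK1 it was 1.33%, 8.79% and 16.7% at days 35, 52 and 56. In MidK2 it was 2.13%, 3.16%, 5.10% and 0.699% at days 18, 22, 29 and 36. The library with the highest share was MidK1 day 56, where 17 of 19 sites were biallelic. Over the 8 sites shared with LowK at day 56 the shares were 4.31% of 209 reads in LowK and 15.9% of 246 reads in MidK1 (adjusted p = 0.000263, Fisher's exact test, Benjamini-Hochberg), which is under the 20 points needed for a call. All 8 sites had the higher reference share in MidK1, and with 10 or more reads 25 of 26 sites did and 1 was equal. Cul4b itself had 5.10% and 7.38% in those libraries.

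The end of Gpc4, a cell-surface heparan sulfate proteoglycan (glypican), was deep in MEF and in MidK2. Its 30 unnamed sites lay 455 to 2468 bases past the M21 end (X:52053021-52165252, minus strand). It was chosen for description after its values were seen, as it falls outside the rule for named windows. In MEF2, 16 sites with at least 5 start positions had a reference share under 10% (together 1.89%), and 7 had 10.3 to 73.5% (together 43.8%). Of the 7, 4 were C-to-A changes, and none of the 16 was. The 16 sites, as far as listed, had 4.53%, 15.0%, 11.8% and 1.88% at days 18, 22, 29 and 36 of MidK2. With at least 5 start positions, sites named Gpc4 had 2.12% in MEF2 (18 sites) and 9.30%, 22.0%, 23.2% and 4.68% at those days (5 to 7 sites). Over all sites they had 3.92% in MEF2, 36.4% at day 22 and the same values at the other days. The 16 unnamed sites and the named sites were thus both highest at days 22 and 29 and near the MEF2 level at day 36. The low MEF2 share of the 16 was set by the split. All unnamed sites past the end had 20.9% in MEF2 and 36.3%, 35.1%, 33.6% and 22.0% at days 18, 22, 29 and 36. With at least 5 start positions they had 14.8% in MEF2 and 23.5%, 32.3%, 24.3% and 16.4%. The 7 other sites, as far as listed, had 41.0%, 54.8%, 44.6% and 43.9% when pooled. They ranged widely among themselves, and the lowest site had 3.23% at day 18, 8.57% at day 29 and 4.26% at day 36. The split used MEF2 values, so the comparison of the sets is a description with no test.

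**Figure D3:**
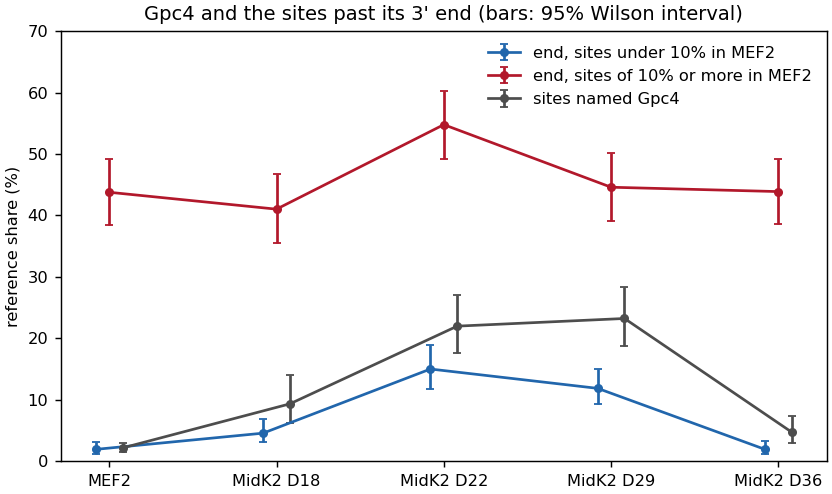
Reference share (y axis, %) of Gpc4 in MEF2 and 4 MidK2 libraries (x axis) at sites named Gpc4 (grey) and at unnamed sites past its 3′ end, split by a MEF2 share under 10% (blue) or of 10% or more (red); bars are 95% Wilson intervals, counting error only. Grey and blue lie highest at days 22 and 29 and are low in MEF2 and at day 36, while the pooled red values lie between 41.0% and 54.8%. All sites shown had variant reads from at least 5 start positions.

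Over all its shared sites the Gpc4 window differed from MEF2 by less than 20 points. The shares were 18.3% in MEF2 and 32.3% at MidK2 day 22 over 17 sites (adjusted p = 1.06e-09, Fisher's exact test, Benjamini-Hochberg). They were 18.9% and 31.1% at day 29 over 20 sites (Fisher's exact test, adjusted p = 4.49e-09). From one MidK2 day to the next, a comparison added after seeing the data, 0 of 83 window values were called, with 14 at an unadjusted p under 0.05, beside a background of 1.38%. Between days 29 and 36 the Gpc4 window had 31.1% and 20.3% over 20 sites. At the same step the end of Uprt had 15.0% and 2.30% over 7 sites (213 and 174 reads, Fisher's exact test, adjusted p = 5.98e-05), and all 7 sites were lower at day 36. The end of Cul4b had 5.29% and 0.906% over 16 sites, 14 of them lower at day 36. Uprt itself had no named site with 20 reads, so its end is its only measurement at this depth.

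Low reference shares were measured past the ends of Gm14569 and Mbnl3 once at least 5 start positions were required. Gm14569 (X:36423601-36491830, minus strand; RefSeq lists Kiaa1210 as a synonym) had 13 sites 122 to 791 bases past its end. With at least 5 start positions their reference share was 0 to 1.16% in all 10 reprogrammed libraries, over 229 to 925 reads each. Over all sites it was 6.94% of 764 reads at MidK2 day 36, where 1 site with 1 start position had 94.5%. None of the 13 was listed in MEF1 or MEF2 at any depth, and the window was listed in all 10 reprogrammed libraries. Of the 68 windows, 36 had no site listed in either MEF library at any depth, and 6 of these 36 were listed in all 10 reprogrammed libraries. The same count was not made for named genes, so absence from MEF cannot be read as particular to unnamed windows. MEF1 and MEF2 listed 3245 and 4516 variants, and the reprogrammed libraries 4504 to 7991. Mbnl3, an RNA-binding splicing regulator of the muscleblind family, had 28 sites 153 to 3558 bases past its end (X:51117269-51206532, minus strand). With at least 5 start positions their share was 0 in LowK at all 3 days and 0.525 to 3.89% in MidK2, and 13.04% in MidK1 day 56, where 1 site with 23 reads was measured. Over all sites it was 3.89%, 5.74%, 11.55% and 7.75% at days 18, 22, 29 and 36 of MidK2. Prkx, a cAMP-dependent protein kinase catalytic subunit, had 7 sites 26 to 341 bases past its end. Its share was 0 of 177 reads at LowK day 35 (95% Wilson upper bound 2.12%) and 0.847% at day 52. At LowK day 56 it was 17.0% of 241 reads. The site 309 bases past the end, at 85.3% of 34 reads there, was not listed at days 35 and 52, and the 5 others had 2.94 to 8.33%. With at least 5 start positions the end of Prkx had 12%, 8.70% and 3.54% at days 35, 52 and 56 of MidK1. Over all sites it had 12%, 8.70% and 12.5%. The limit left out 1 site at 82.8% at day 56, while a site at 75.7% passed it at day 35. The 3 limited values therefore do not show a fall over time. In MidK2 the end of Prkx had 3.70%, 8.70%, 3.37% and 1.28% at days 18, 22, 29 and 36 under the limit. Over all sites it had 15.5%, 18.5%, 14.3% and 18.9%.

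**Figure D4:**
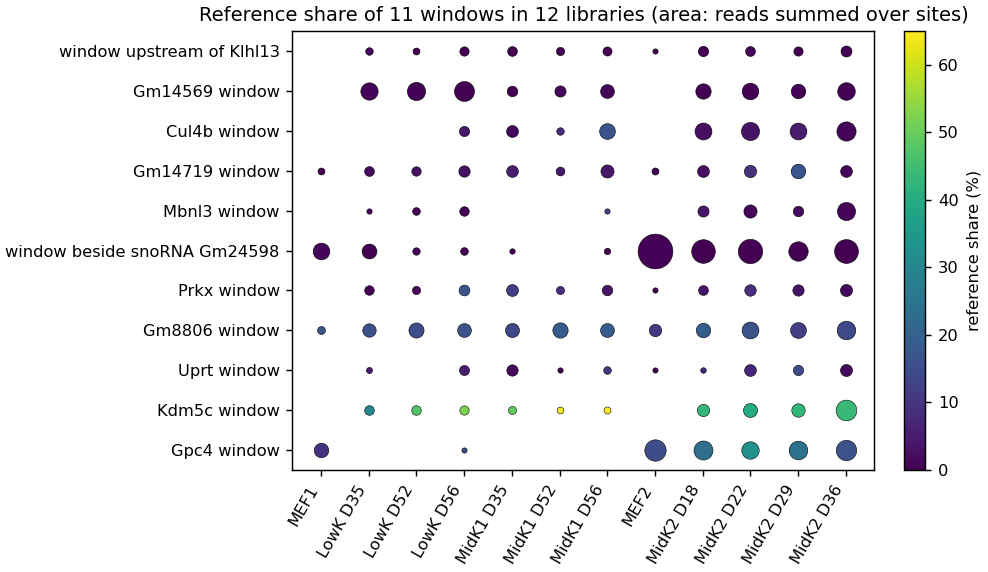
Reference share (colour, %) of the 10 windows chosen by summed coverage and of the Gpc4 window (rows) in 12 libraries (columns), at sites with 20 or more reads and at least 5 start positions; the area of a dot is the number of reads summed over sites, and no dot means no such site. The Kdm5c row is high in each of its 10 libraries, the rows of Gm14569 and of the windows beside Gm24598 and upstream of Klhl13 stay near 0.

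Some unnamed transcription lay far from any named gene. The deepest was a stretch of 1626 bases (X:64496942-64498567) with 23 sites, 2279875 bases from the nearest gene the tables name. The nearest M21 gene is Gm24598, a small nucleolar RNA (X:64496584-64496657) whose edge is 285 bases away, and RefSeq has no gene there. Its deepest site (X:64498276, a T-to-G change) had 137 reads in MEF1 and 430 in MEF2. In LowK it had 100, 26 and 41 reads, in MidK1 26, 13 and 36, and in MidK2 205, 218, 115 and 187. MEF2 was the deepest library, and MEF1 was deeper than each of the 6 LowK and MidK1 libraries of its set, whose reads summed over named sites were 135376 to 171186 against 148634 in MEF1. Library totals are not in the tables, so these counts are not normalised. With at least 5 start positions the reference share was 0 to 0.940% in each of the 11 libraries, over 26 to 2920 reads. A stretch where both chromosomes carry the variant would read the same way.

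A second distant window, X:23515705-23515784, lay 150623 bases upstream of Klhl13, a substrate adaptor of a cullin-3 ubiquitin ligase. Its 4 sites had reference shares of 0 to 1.06% in 11 libraries. In MEF1 2 of the 4 were listed, with 10 and 11 reads. Chosen after their values were seen, 2 sites at X:4899397 and X:4899400 were deepest in MidK1, with 170 and 177 reads at day 35, 153 and 160 at day 52 and 72 and 78 at day 56. They had 28 reads each in MEF2, 65 and 67 at MidK2 day 18, and 26 each in LowK day 56, and were not listed in LowK at days 35 and 52.

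Gm8806, a processed pseudogene (X:80533745-80535151), had 13 sites up to 492 bases past its end. Its window share was 10.9 to 19.1% at sites with at least 5 start positions in all 12 libraries, 17.8% in MEF1 and 10.9% in MEF2. The share came mostly from 2 A-to-G sites, at 330 and 318 bases past the end. The first had 76.0% in MEF1, 43.9% in MEF2 and 52.5 to 74.6% in the reprogrammed libraries. The site 227 bases past the end had 0 to 1.27% in the same 12 libraries. Gm14719, another processed pseudogene, had 0 in both MEF libraries (3 sites each, 71 and 75 reads). In the others it had 0.685 to 17.3% at sites with at least 5 start positions. Over all sites it had 12.2% at MidK2 day 18 and 28.8% at MidK2 day 29. A processed pseudogene is a near copy of another gene's messenger RNA, and how reads of the copies were placed is not stated in the labels, so these shares are uncertain as allele shares.

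Whether unnamed sites follow the gene beside them was tested within each library. The reads of a window's sites within 10 kb of a named gene were set against the reads at that gene's own sites, by Fisher's exact test adjusted over these and over all pairs of named genes within 10 kb of each other. The same 20 points were required. Of 133 window and library pairs (31 windows), 29 (21.8%) were called, 13 with the window higher and 16 with the gene higher. Of all pairs tested 24.8% were called, and of 628 pairs of neighbouring named genes 160 (25.5%). The median absolute difference was 5.0 points for windows and 7.37 for neighbouring genes. The window was within 10 points of its gene in 82 of 133 pairs (61.7%), and neighbouring genes were so in 353 of 628 (56.2%).

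Many of these calls depended on sites whose variant reads came from few start positions. At named sites, 1809 of 30196 site and library values (5.99%) had variant reads from fewer than 5 start positions. Of the 1457 values at unnamed sites, 117 (8.03%) did, 101 of them in MEF2 and MidK2, with a median variant share of 9.52%. Such a site adds a reference share near 90% to its window. The tables of MEF2 and MidK2 list sites with at least 2 variant reads, and a site with fewer than 5 cannot reach 5 start positions. In 78 of the 416 sites no library reached 5 start positions, and 68 of those 78 were found in 1 library only. With at least 5 start positions required at every site, a limit chosen after seeing the data, 9 of 120 window values were called, against 14.1% of all pairs. All 9 were among the 29, and 8 of the 29 could no longer be tested. The limit takes out sites with few variant reads, and so mostly with high reference shares, from windows and genes alike. The fall in calls is therefore partly set by the limit and does not show that the lost calls were wrong. For neighbouring genes the count under that limit was 93 of 605 (15.4%).

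**Figure D5:**
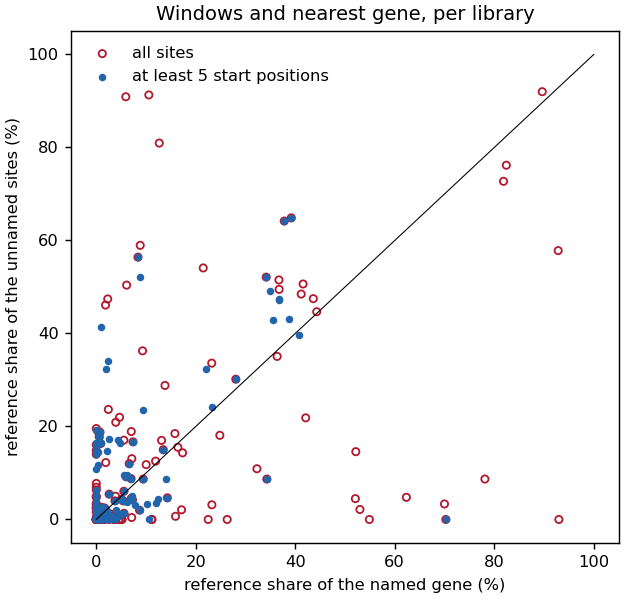
Reference share of unnamed sites (y axis, %) against that of the nearest named gene within 10 kb (x axis, %), 1 point per window and library, with all sites (open red) and at sites with at least 5 start positions (filled blue); the line marks equal shares. Many of the open points far from the line have no filled point beside them.

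The 9 remaining calls fell in 5 windows. Those beside Cox7b, Zbtb33, Brwd3 and Pou3f4, and the dense runs of variants near Gria3 and Atp7a, were chosen after their values were seen. In the Kdm5c window the share past the end was 64.2% and 37.8% in the gene at MidK1 day 52, and 64.9% and 39.2% at day 56 (adjusted p = 0.000155 and 0.000172, Fisher's exact test, Benjamini-Hochberg). Over all its sites the Kdm5c window was the higher one in all 10 libraries tested, by 0.359 to 26.4 points. It was the lower one at MidK2 day 22 once at least 5 start positions were required, with 39.6% against 40.8% in the gene. These 2 calls rest on 3 sites each, and with 10 or more reads the end had 48.1% at day 56. Upstream of Cox7b, which encodes a subunit of cytochrome c oxidase, 4 sites had 52.1% and 56.4% at MidK2 days 22 and 29, against 8.84% and 8.39% in the gene. All 5 unnamed sites there were A-to-T changes spaced 3 or 4 bases apart within 15 bases, and no site was listed in MEF. The sites 7254 to 7457 bases upstream of Zbtb33, which encodes the methyl-CpG-binding factor Kaiso, had 32.4% and 34.1% at MidK2 days 29 and 36, against 1.86% and 2.30% in the gene. Under the same limit they had 1.02% at day 18 and 9.52% at day 22, against 2.43% and 6.10% in the gene, and neither was called. Over all sites they had 23.7% and 50.4% at those days, and both were called. These sites lay 710 bases or more from another processed pseudogene, Zfp36l1-ps. The other calls were at Brwd3 (MidK2 day 29) and at Pou3f4 (LowK days 52 and 56), each over 41 reads or fewer of unnamed sites.

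Ends that were not called in any library they shared with their gene include Prkx (10 libraries), Gm14569 (10) and Gm14719 (11). For Prkx the values moved with the limit on start positions. At LowK day 56 the end had 17.0% and the gene 13.1% over all sites, and 17.0% and 4.43% with at least 5 start positions (Fisher's exact test, adjusted p = 6.04e-08). At MidK2 day 22 they had 18.5% and 15.8% over all sites and 8.70% and 14.1% under that limit. At MidK2 day 36 they had 18.9% and 7.04% over all sites (Fisher's exact test, adjusted p = 3.71e-10) and 1.28% and 4.49% under it. Cul4b was called in 1 of 8 libraries, MidK2 day 22 (3.16% past the end and 23.2% in the gene), and not with at least 5 start positions. A difference that is not called does not show that the shares are equal. For Gm14569 at MidK2 day 18 the end had 0 of 530 reads from the reference allele and the gene 11.2% of 1062, an adjusted p of 1.18e-21 (Fisher's exact test) at a difference under 20 points. The gene had 0.107% of 934 reads with at least 5 start positions, and the adjusted p was then 1.

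Dense runs of variants formed a group of their own. A stretch of 90 bases (X:41133762-41133851), 267003 bases upstream of Gria3 and in no gene of either annotation, held 21 sites, 13 of them G-to-C changes, with a median spacing of 2.5 bases. It had 20 or more reads only in MidK1, with 19 sites at day 35 and 13 at day 56, and shares per site of 10.8 to 88.1% at day 35. Some of its sites were listed with 10 to 17 reads at LowK day 56 and MidK1 day 52, and none in MEF or MidK2. Past the end of Atp7a, a copper-transporting ATPase, 6 sites within 25 bases, 4 of them C-to-T, had reference shares of 31.1 to 93.3% in MidK2. Other sites of that end, such as the one 1796 bases past it, had 0 in all libraries that listed it.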

How the data were processed

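The series holds 12 poly(A) RNA libraries, prepared with a directional kit per the labels' protocols. The authors listed variants on the X chromosome against build mm10 (per the submitters' processing notes) with a basic variant caller of a commercial workbench (per the series description). No aligner or caller setting is given in the sources used here. The deposited tables give a count of variant reads and a count of covering reads per position, not normalised, a percent (variant reads among covering reads), and the number of start positions of the variant reads. The deposited percent equalled 100 times count over coverage. Coverage was at least 10 reads in every table.

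At positions listing several alleles, the allele with the most reads was used (69 second alleles dropped). Members had 20 or more covering reads in some table and no gene name; none of the 416 was named in any other table. Distances were taken to the 545 gene names in the tables, 3 of which could not be placed in GENCODE M21 or RefSeq (GRCm38.p6). Windows were fixed multiples of 100 kb. The sequence printed is from the M21 transcripts. Intervals are 95% Wilson intervals; reads have no molecular identifiers, so they cover counting error only. Tests used SciPy 1.17.1 and Python 3.11.15. The test between libraries was run on simulated reads drawn independently per site, which leaves out reads shared by neighbouring sites. The test of windows against genes was not run on simulated data.

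The members and lists were chosen with earlier results of these data known. Named windows were the 10 with the most covering reads among those measured in at least 8 libraries, every window called at the last day of a course (none was), those within 10 kb of 28 listed genes, and the nearest genes of these; others are marked as chosen after their values were seen. Alternatives changed the coverage minimum, sites per window, window shape, size of difference, kinds of base change and MEF library; the limits on start positions and variant reads were added after seeing the data.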

Additional observations from a re-analysis of the deposited data

Results flagged for a closer look

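The Kdm5c window differed between MidK1 and LowK at day 35 by 20.7 percentage points of reference share, by a test of the difference itself between 2 libraries (Fisher's exact test, Benjamini-Hochberg p = 0.0113). With 10 or more reads and at least 5 start positions, 8 of 10 shared sites were higher in MidK1 and 2 lower, with 31.9% of 185 reads in LowK and 42.1% of 209 reads in MidK1. No replicate of either course exists at that day.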

How the results depend on the processing

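The count of windows called against MEF was 0 in each comparison and stayed 0 with the other MEF library, with 1 site per window, with clusters in place of fixed windows, without A-to-G and T-to-C changes, outside M21 genes, at 50 reads (where MidK1 had no window left), with the minor share and with at least 5 start positions. It became 1 for MidK1 and 2 for MidK2 at 10 reads, and 2 for MidK2 at a difference of 10 points. Leaving out each day in turn gave 0 to 0 for LowK, MidK1 and MidK2 against MEF and 0 to 1 for MidK1 against LowK, 0 without MidK1 day 35. The 1 window called between MidK1 and LowK became 0 at 50 reads, with 1 site per window, with the minor share and with at least 5 start positions, and 2 at 10 points. Between MidK2 days the count of 0 became 1 at 10 reads and 2 at 10 points. Windows apart from their gene numbered 29, against 11 at 50 reads, 5 with the minor share, 51 at 10 points, 9 with at least 5 start positions and 11 with the first set's limits in every table; 23 were called with 1 site per window and gene. Biallelic values were 23.9% of 1457, and 15.0% at 20 to 80%, 17.9% at 50 reads and 26.2% without A-to-G and T-to-C changes. The share of sites close to a gene was 46.9% at 2 kb and 80.05% at 50 kb. The cause of these changes was not tested. A filter on soft-masked repeats was not run. The labels give no replicate numbers; LowK and MidK1 were compared on the days they share. At 20 to 40 reads per site, shares below about 10% rest on few reads.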
